A study of Mus musculus with 2 samples.

Results

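Of 9926 protein-coding genes on mouse chromosomes 1 to 19 with a CpG-rich promoter, 340 had no DNase I peak at any coding start in either of 2 cerebellum libraries, which is 3.43%. A promoter was taken as CpG-rich when the CpG observed/expected ratio, the number of CpG dinucleotides relative to that foreseen from the C and G content, was 0.6 or more in the 500 bp on each side of the 5′-most coding start. It was taken as closed when no peak of the less strict deposited list lay within 500 bp of any start of a coding transcript. The mice were B6CASTF1/J males aged 4 days, hybrids of a B6 and a wild-derived CAST parent as the name has it, and the tissue was cerebellum. Each library's label lists 3 animals. The labels call them biological replicates 1 and 2 of 1 group, with no treatment, so every value below is a description of these libraries and no test was made. The peaks themselves chose the 340 genes, and their number is therefore not a finding.

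DNase-seq maps DNA that the enzyme DNase I can cut, and promoters with dense CpG dinucleotides (CpG islands) are as a rule open in nearly every tissue. At many genes for developmental transcription factors and signals, CpG islands are known to be held by Polycomb repressors in tissues that do not use the gene. A smaller set, the germline genes, is known to be silenced in body tissues by DNA methylation or by E-box binding repressor complexes.

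Among the CpG-rich genes, 9205 were open in both libraries, 333 in replicate 2 alone and 48 in replicate 1 alone. Below the ratio, 6562 of 10796 promoters were closed in both libraries (60.8%). Replicate 2 had 131518 peaks and replicate 1 had 61896, and 673 CpG-rich promoters (6.78%) lacked a peak in replicate 1 against 388 (3.91%) in replicate 2. The depth in reads is unknown. Peak values are the authors' depth-normalised signal, and promoters open in both libraries had a median of 2.50 in replicate 1 and 5.36 in replicate 2. As a check of the tissue, the promoters of Neurod1 (1.48 and 1.82) and Atoh1 (0.587 and 0.492), transcription factors of the granule cell lineage, had peaks in replicates 1 and 2, as did those of Zic1, Calb1 and Olig2. Pax6 had a peak in replicate 2 alone (3.66), and Pcp2 of Purkinje cells and Barhl1 of granule cells had none. The liver gene Alb, the muscle gene Myod1 and the skin gene Krt14 had none either, but their ratios (0.319, 0.480 and 0.291) place them in the class where 60.8% were closed.

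To show what a closed CpG-rich promoter looks like, the 200 bases before the 5′-most coding start are printed for 4 closed genes of different kinds and for 1 open gene, 5′ to 3′ along the gene, with every CpG in capitals (mm10, from the RefSeq GRCm38.p6 genome). Wnt9a, a secreted Wnt signal, lies at chr11:59306728-59306927 on the plus strand. Hoxa13, a homeobox gene that patterns the distal limb and hind body, lies at chr6:52260881-52261080 on the minus strand. Barhl1, a homeobox gene of the granule cell lineage, lies at chr2:28916669-28916868 on the minus strand. Mael, a germline gene that acts against transposons, lies at chr1:166238748-166238947 on the minus strand. Mrpl17, a mitochondrial ribosomal protein gene with a peak of 6.59 in replicate 1 and 15.8 in replicate 2, lies at chr7:105811100-105811299 on the minus strand.
Wnt9a, closed: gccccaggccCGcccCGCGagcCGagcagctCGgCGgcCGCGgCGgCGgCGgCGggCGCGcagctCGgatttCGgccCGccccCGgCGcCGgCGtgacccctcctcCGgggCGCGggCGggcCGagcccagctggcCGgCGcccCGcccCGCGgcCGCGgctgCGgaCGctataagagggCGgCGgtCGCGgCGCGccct
Hoxa13, closed: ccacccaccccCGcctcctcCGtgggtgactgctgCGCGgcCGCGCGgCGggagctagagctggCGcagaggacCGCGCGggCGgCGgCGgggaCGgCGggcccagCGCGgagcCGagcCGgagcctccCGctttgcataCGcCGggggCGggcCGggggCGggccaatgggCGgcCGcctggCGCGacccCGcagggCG
Barhl1, closed: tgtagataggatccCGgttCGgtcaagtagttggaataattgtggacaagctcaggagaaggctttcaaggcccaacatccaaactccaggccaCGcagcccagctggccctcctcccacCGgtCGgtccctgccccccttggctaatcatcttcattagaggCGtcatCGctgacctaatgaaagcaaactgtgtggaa
Mael, closed: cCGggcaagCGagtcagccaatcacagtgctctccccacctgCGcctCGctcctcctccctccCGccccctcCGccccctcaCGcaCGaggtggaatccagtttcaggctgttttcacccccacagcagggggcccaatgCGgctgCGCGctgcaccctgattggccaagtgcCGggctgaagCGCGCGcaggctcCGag
Mrpl17, open in both libraries: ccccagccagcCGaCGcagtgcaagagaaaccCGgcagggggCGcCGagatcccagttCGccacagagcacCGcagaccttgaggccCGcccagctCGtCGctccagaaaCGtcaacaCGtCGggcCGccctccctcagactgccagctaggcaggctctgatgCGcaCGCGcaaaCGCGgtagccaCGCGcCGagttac
The stretches hold 41 CpGs in Wnt9a, 33 in Hoxa13, 7 in Barhl1 and 16 in Mael, against 22 in the open Mrpl17. Wnt9a and Hoxa13 were thus closed with more CpGs in these 200 bases than the open gene. The closed genes were chosen by name, and Mrpl17 for its strong peaks. Other closed genes whose stretches were taken held fewer CpGs than Mrpl17, with at most 21, in Six2. None of the 5 stretches overlapped an exon of GENCODE, the annotation used here. The RefSeq start of Wnt9a (59306849) lies inside its stretch, and that of Barhl1 lies 1316 bp from the GENCODE start, before the stretch.

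Closed CpG-rich promoters had a lower CpG ratio than open ones, with wide overlap. The median ratio was 0.699 in the closed set and 0.789 in promoters open in both libraries, while the median GC content was 61.2% in each. Promoters open in a single library had medians of 0.719 (replicate 2) and 0.722 (replicate 1), so a lower ratio was not particular to the closed set. The share closed fell from 8.56% at ratios of 0.6 to 0.65 to 1.61% at 0.9 and above, where 30 genes were closed. The 3 closed genes just above the ratio limit were Ly6g6c (0.6002), Dll4 (0.6008) and Rxfp2 (0.6012), and the closed P2rx5 (0.598) fell just below it. At the distance limit, the nearest peaks of Hcn2, Ankrd63 and Dok1 lay 503, 504 and 510 bp from a coding start, while a peak at 500 bp made the promoter of Kcnj4 open.

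**Figure D1:**
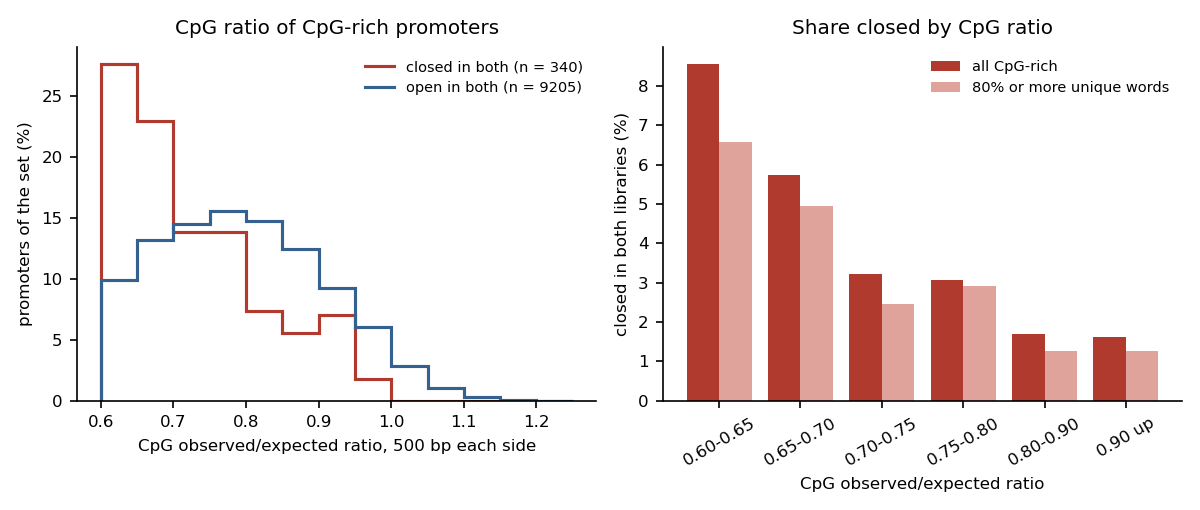
Left, the share of promoters (%) in each class of CpG observed/expected ratio for the 340 closed CpG-rich promoters and the 9205 open in both libraries. Right, the share of CpG-rich promoters closed in both libraries (%) by class of ratio, for all CpG-rich genes and for those with 80% or more unique 31-base words; it goes from 8.56% in the lowest class to 1.61% in the highest for all CpG-rich genes.

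Reads from duplicated DNA cannot be placed uniquely, so the share of 31-base words in each promoter window that occur once in the genome was counted. All 33 CpG-rich promoters with no such word were closed, as were 11 of 41 (26.8%) with under 20% and 29 of 229 (12.7%) with 20% to under 80%. With 80% or more unique words, 267 of 9623 were closed (2.77%). Of the 73 closed promoters under 80%, 35 belonged to gene models without a gene name, and runs of neighbouring closed genes such as Plac9a to Tmem254b on chromosome 14 (6 genes) had at most 1.44% unique words. Slc25a37 to Loxl2 on chromosome 14 (5 genes) had none. No source used here states how the authors treated reads with several matches. For these 73 genes a closed promoter and one whose reads could not be placed cannot be told apart. For gene groups that hold such promoters, the count among promoters with 80% or more unique words is given as well.

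Genes for developmental transcription factors made up 82 of the 340 closed promoters, and all 82 had 80% or more unique words. They were 29.6% of the 277 CpG-rich genes in 8 transcription factor lists, against the 3.43% over all CpG-rich genes. The closed genes were 7 of 11 T-box and Gata genes (63.6%), 14 of 25 Hox cluster genes (56.0%), 3 of 6 Pax genes, 35 of 108 other homeobox genes (32.4%) and 9 of 31 forkhead genes. The order of the first 3 lists turned in other settings: with replicate 2 alone, the shares were 63.6% for T-box and Gata, 72.0% for Hox and 83.3% for Pax genes. Tissue-specific bHLH genes (5 of 30, 16.7%) and developmental zinc finger and AP-2 genes (8 of 52, 15.4%) were lower. Sox genes had 1 closed promoter of 14 (7.14%), that of Sox7. The lists and the genes were chosen with earlier results of these data known.

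**Figure D2:**
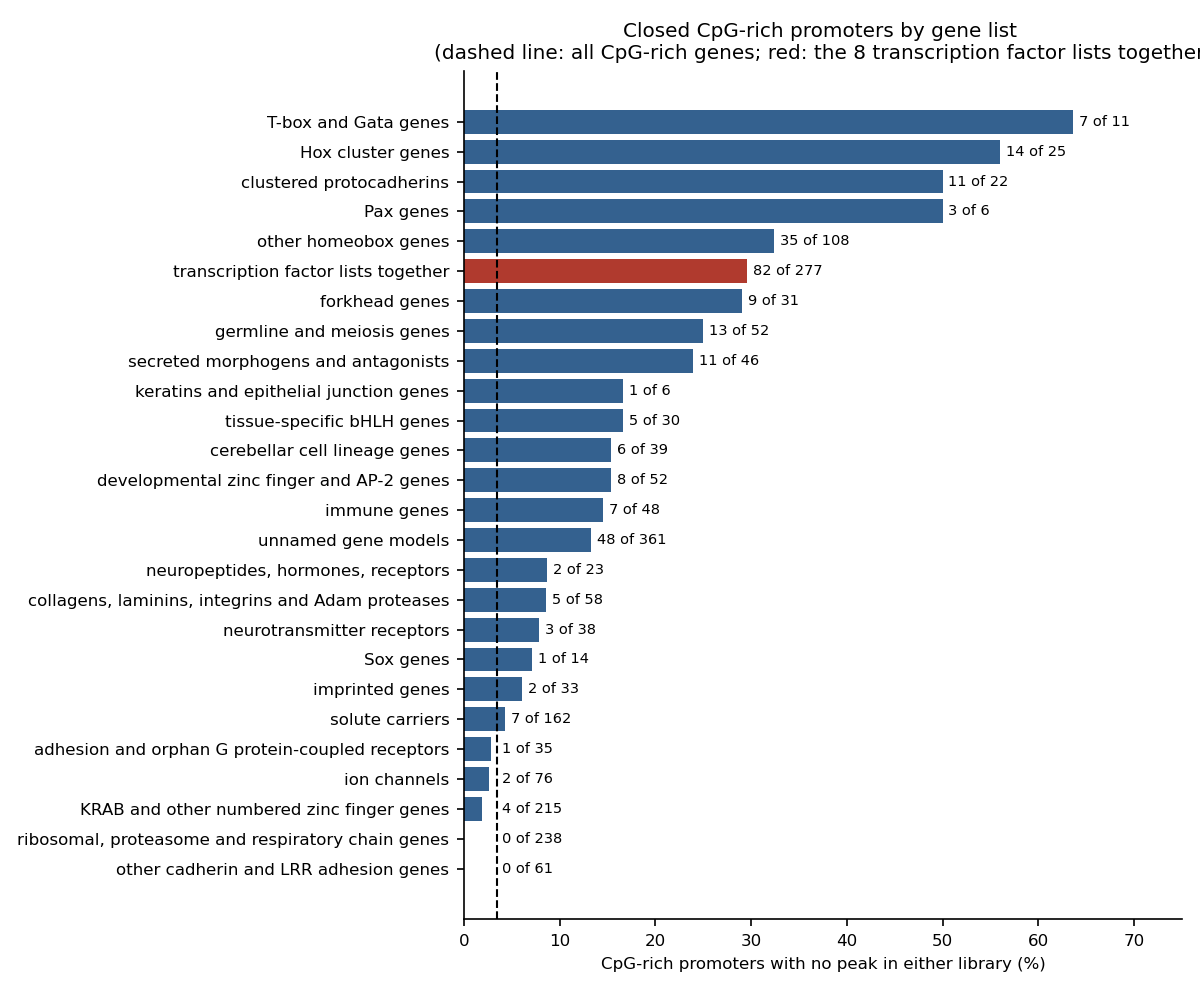
Share of CpG-rich promoters with no peak in either library (%) for each gene list with at least 5 CpG-rich genes; the label of each bar gives closed and CpG-rich genes. The dashed line is the 3.43% over all CpG-rich genes, and the red bar, 29.6%, pools the 8 transcription factor lists.

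Along the Hox clusters, whose genes give cells their position from head to tail, closed promoters were mostly those of genes for the hind body. In paralogue groups 6 to 13, 12 of 17 CpG-rich promoters were closed, 4 had a peak in 1 library and 1 had a peak in both. In groups 1 to 5, used in the hindbrain and neck, 2 of 8 were closed, 2 had a peak in 1 library and 4 had a peak in both. This split into groups was chosen after the values were seen. Hoxc13, Hoxc12, Hoxc11 and Hoxc9 formed a run of 4 closed CpG-rich genes over 55336 bp. Hoxc10 lies within it, just under the ratio limit (0.594), and had peaks of 0.948 in replicate 1 and 1.12 in replicate 2. At the Hoxd cluster, Evx2, Hoxd13 and Hoxd11 formed a run over 22766 bp. Shared peaks lay inside this run, 2365 and 4133 bp before the start of Evx2 and 4815 bp after that of Hoxd13. Evx2, and Hoxb8 of the Hoxb cluster, had a peak in both libraries at the RefSeq start, so their closed state depends on the annotation used. Hoxa7 was the 1 CpG-rich gene of groups 6 to 13 open in both libraries, with peaks of 2.26 in replicate 1 and 2.32 in replicate 2. The 2 closed genes of the anterior groups were Hoxa3 and Hoxd3. Their 5′-most coding starts lay out of numerical order, that of Hoxa3 between Hoxa7 and Hoxa6 and that of Hoxd3 between Hoxd8 and Hoxd4.

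**Figure D3:**
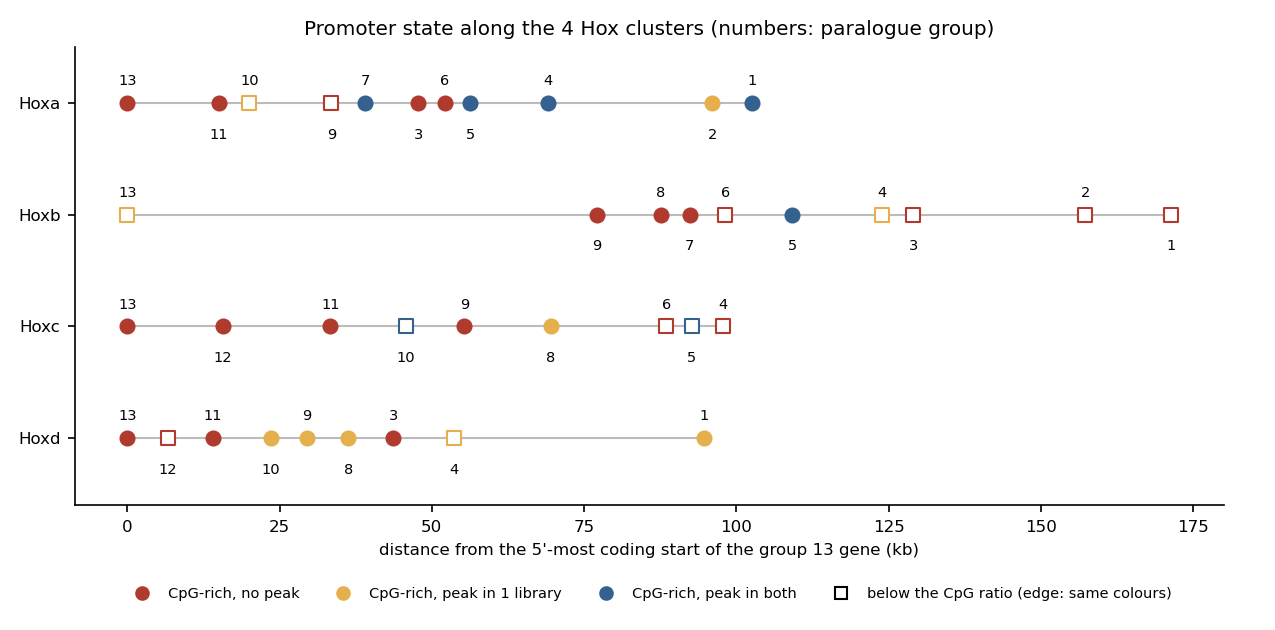
Promoter state of the genes in the 4 Hox clusters by distance (kb) from the 5′-most coding start of the group 13 gene, with the paralogue group beside each point. Circles are CpG-rich promoters with no peak (red), a peak in 1 library (yellow) or a peak in both (blue), and squares are promoters below the ratio, with the same colours on the edge; the group 9 to 13 end of each cluster holds no CpG-rich promoter with a peak in both libraries.

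The other closed homeobox genes covered several body regions. Vax1 and Six6 (eye and forebrain), Otx2 (forebrain and midbrain), Nkx2-1 (ventral forebrain, lung and thyroid), Lbx1 and Mnx1 (spinal cord), Cdx1 and Cdx2 (gut) and Alx4 (face) were among the 35. Vax1, the one with the highest ratio (0.948), had its nearest peaks 26345 bp away in replicate 1 and 24016 bp away in replicate 2. Twist1, a bHLH factor of mesoderm and neural crest, was farther still from any peak, at 91991 and 63491 bp. Gata2 (blood and other lineages), T (notochord and early mesoderm), Tbx1 and Tbx20 (pharynx and heart), Foxf1 and Foxf2 (gut and lung mesenchyme), Pax1 (spine) and Pax7 (muscle and dorsal neural tube) were also closed.

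A handful of closed promoters belonged to genes named for cerebellar lineages. In the list of cerebellar cell lineage genes, 6 of 39 CpG-rich promoters were closed (15.4%, beside 3.43% over all CpG-rich genes), those of Ptf1a, Skor2, Pax2, Tfap2b, Barhl1 and Eomes. Ptf1a specifies GABAergic neurons, Skor2 acts in Purkinje cells, Pax2 and Tfap2b mark inhibitory interneuron precursors, Barhl1 marks granule cells and Eomes marks unipolar brush cells. Several of the 6, such as Pax2, Ptf1a and Eomes, also count among the 82 closed transcription factor genes above. The lists thus overlap, and the share closed over the transcription factor lists was 29.6%. All 6 had ratios under 0.75, and none of the list's promoters at 0.75 or more was closed. With 1 library left out, the share was 23.1% (replicate 2 alone) or 25.6% (replicate 1 alone). Barhl1 had its nearest peak at the same place in both libraries, 7333 bp before the start, with a value of 2.93 in replicate 1 and 2.73 in replicate 2. Pax2 had a peak before its start, 1109 bp away with a value of 1.41 in replicate 1 and 1105 bp away with a value of 1.05 in replicate 2. Skor2 had a weaker peak at 3088 bp (0.716) and 3078 bp (0.492). The nearest peak of Ptf1a lay at 30943 bp in replicate 1 and at 2461 bp in replicate 2 (0.805). In bulk tissue, a promoter open in few cells and one that is less open in many cells cannot be told apart.

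Secreted signals were closed in 11 of 46 cases (23.9%, beside 3.43% over all CpG-rich genes), 7 of them Wnt genes. Wnt2b, Wnt3, Wnt3a, Wnt6, Wnt9a, Wnt9b and Wnt10b were closed among 13 CpG-rich Wnt genes, while 3 had a peak in 1 library and Wnt5b, Wnt7a and Wnt11 had one in both. Wnt7a was the strongest of these, at 1.82 in replicate 1 and 3.33 in replicate 2. Fgf8, the signal of the midbrain-hindbrain organiser in the embryo, was closed with shared peaks 3566 bp before its start (1.06 and 1.30) and 4666 bp before it (2.41 and 3.89). Ihh, Bmp8b and Rspo1 completed the group.

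Germline and meiosis genes were closed in 13 of 52 cases, and in 12 of 51 with 80% or more unique words. They included Ddx4, an RNA helicase of germ cells, Spo11, which makes the breaks of meiotic recombination, Hormad1 and Sycp2 of the meiotic chromosome axis, Tex12 of the synaptonemal complex, and Mael, Asz1 and Mov10l1 of the piRNA pathway. Tcfl5, Fkbp6, Mei1, Pramel1 and Rpl10l were the others. The E-box letters CACGTG, which read the same on both strands, stood within 500 bp of the 5′-most coding start in 10 of these 13 closed promoters (76.9%) and in 12 of 28 germline promoters open in both libraries (42.9%). The share was 22.5% over all CpG-rich promoters, 22.7% over all 340 closed ones and 17.2% over all promoters of chromosomes 1 to 19. To show these letters in place, 30 bases around the match are printed for the 6 closed germline genes whose nearest match lay before the start, 5′ to 3′ along the gene, with CACGTG in capitals (mm10).
Fkbp6, 34 bp before the start, chr5:135350064-135350093, minus strand: gcgtctatcgatCACGTGccgtttctctcg
Hormad1, 17 bp before the start, chr3:95559645-95559674, plus strand: atgcgcactgcgCACGTGctgaccggagcg
Tex12, 33 bp before the start, chr9:50561344-50561373, minus strand: ccgcgagactgtCACGTGgctcgcgcgctg
Mael, 217 bp before the start, chr1:166238950-166238979, minus strand: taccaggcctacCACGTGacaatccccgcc
Mov10l1, 158 bp before the start, chr15:88982736-88982765, plus strand: tccatgctccttCACGTGctaaccgccaac
Sycp2, 362 bp before the start, chr2:178408033-178408062, minus strand: tttaactctcttCACGTGaagccatggagt
In Fkbp6, Hormad1 and Tex12 the match lay within 34 bp of the start, and in Mael, Mov10l1 and Sycp2 it lay farther off. A match of letters is a description of the sequence and not a binding site.

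Other short words were searched on both strands of the same windows. Promoters were those with 80% or more unique words. The counts over all promoters, over those open in a single library and in the lists were not filtered. CCGGAAG, the core recognised by ETS factors, stood in 14.6% of the 267 closed and 32.6% of the 9005 open promoters, and in 19.6% of all promoters. It stood in 14.4% of the 333 promoters open in replicate 2 alone and 14.6% of the 48 open in replicate 1 alone. The low share was thus not particular to the closed set. Inside the transcription factor lists the word stood in 8 of 82 closed (9.76%) and 13 of 135 open promoters (9.63%). In the germline list it stood in 4 of 13 closed (30.8%) and 7 of 28 open promoters. GGGCGG, the GC box, was common in both (86.5% and 92.6%, with 61.9% over all promoters), as was TCCCGC (76.8% and 77.4%, with 48.8% over all promoters), whose reverse strand can overlap a GC box.

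Numbered zinc finger genes had 4 closed promoters of 215 (1.86%), and 2 of 203 (0.985%) with 80% or more unique words, beside 3.43% and 2.77% over all CpG-rich genes. Ribosomal, proteasome and respiratory chain genes had 0 of 238, and cadherins and other adhesion genes outside the protocadherin clusters had 0 of 61. Ion channels had 2 of 76 (2.63%), those of Hcn2 and Kcnk6. With replicate 2 left out, however, 19.7% of them were closed, beside 6.78% over all CpG-rich genes. Solute carriers had 7 of 162 (4.32%), and 6 of 158 (3.80%) with 80% or more unique words, near the shares over all CpG-rich genes. The 7 were Slc6a4, the serotonin transporter, Slc18a3, the vesicular acetylcholine transporter, and Slc5a5, Slc6a7, Slc22a3, Slc25a37 and Slc30a2. Neurotransmitter receptors had 3 of 38 (7.89%), namely Htr6, Grin3b and Grin2c. Grin2c, an NMDA receptor subunit of mature granule cells, had its nearest peak 3338 bp before the start in both libraries (2.19 and 3.11).

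For the lists that follow, the share closed over all CpG-rich genes was 3.43%, and 2.77% with 80% or more unique words. Immune genes were closed in 7 of 48 cases (14.6%), and in 4 of 42 (9.52%) with 80% or more unique words. Of these, Tbx21 (a T-box factor of T cells, also counted above), Tnfrsf10b (a death receptor), Cxcl16 (a chemokine) and H2-Q10 had 80% or more unique words. The other 3, H2-Q1, H2-Q2 and H2-Q6 of the major histocompatibility complex, did not. Collagens, laminins, integrins and Adam proteases had 5 of 58 closed (8.62%): Col2a1 of cartilage, Col8a2, Col13a1, Itga5 and Itgb4. Neuropeptides, hormones and their receptors had 2 of 23 (8.70%), Gcgr, the glucagon receptor, and Rxfp2, a relaxin family receptor. Imprinted genes had 2 of 33 (6.06%), Dio3, which inactivates thyroid hormone, and Slc22a3, an organic cation transporter. Of adhesion and orphan G protein-coupled receptors, 1 of 35 was closed (2.86%, Gpr153), of keratins and epithelial junction genes 1 of 6 (Ppl), and of olfactory and vomeronasal receptors 0 of 1. With replicate 2 left out, the shares were 20.7% for the collagen and integrin list, 34.8% for neuropeptides and 21.2% for imprinted genes. They were 14.3% for adhesion and orphan receptors and 66.7% for keratins, beside 6.78% over all CpG-rich genes.

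Clustered protocadherins, cell surface proteins of which each neuron uses a few, were closed in 11 of 22 cases, and in 4 of 11 with 80% or more unique words. In replicate 1 alone 81.8% were closed. Gene models without a name showed 48 of 361 closed (13.3%), and 13 of 288 (4.51%) with 80% or more unique words. Among histone genes, a list added after the data were seen, 8 of 64 were closed, 4 of these had no unique word, and 2 of 15 with 80% or more unique words were closed. Of the 267 closed promoters with unique words, 118 were in none of the 26 lists. From these, chosen by name after they were seen, Esrp2, Spint1, Lad1, Pkp1 and Kdf1 act in epithelia, Aldh1a3 and Cyp26a1 make and break down retinoic acid, Des is the muscle intermediate filament, and Adad1, D1Pas1, Papolb and Hsf5 act in the testis.

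The surroundings of closed promoters were not empty. Peaks were counted outside the 500 bp around the coding starts of each gene. With 80% or more unique words, 53.2% of closed and 30.2% of open promoters had a single coding start. What the windows left out around further starts do to the shares below was not tested. Within 5000 bp, 84 closed promoters (24.7%) had a flanking peak in both libraries, against 31.7% of the promoters open in both. With 80% or more unique words the values were 76 of 267 (28.5%) and 31.6%. Close to the start the sets differed more. Within 2000 bp the shares were 8.99% and 21.4% for promoters with unique words. Within 10000 bp the order turned, with 54.7% of closed and 45.7% of open promoters, and within 50000 bp the shares were 93.3% and 90.3%. The median distance to the nearest flanking peak was 8683 bp for closed and 10739 bp for open promoters in replicate 1, and 5488 bp and 2336 bp in replicate 2. The libraries thus gave opposite orders of these medians. Replicate 2 had more peaks, and the part of peak number in this was not tested.

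**Figure D4:**
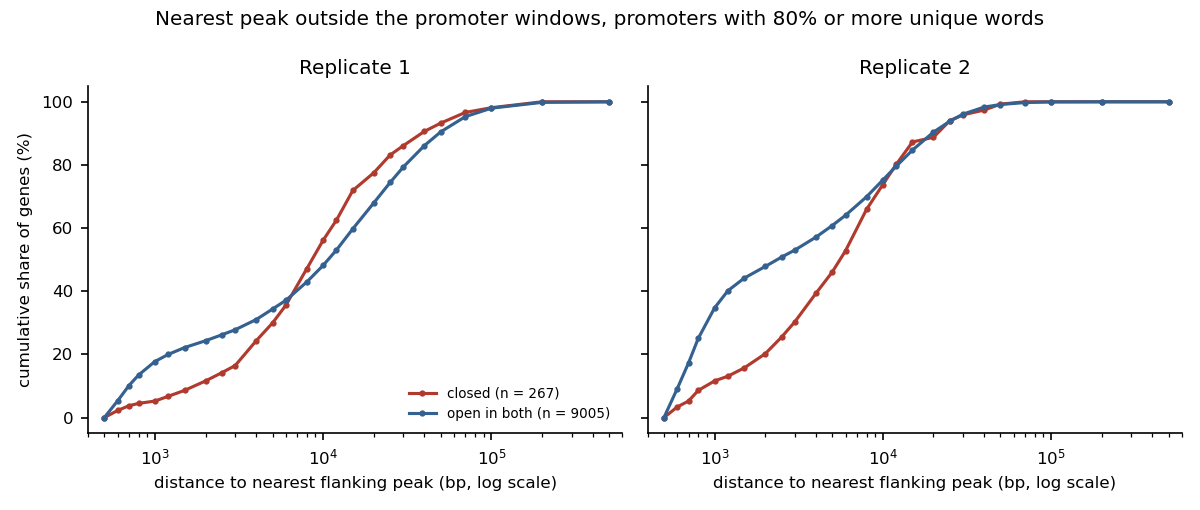
Cumulative share of genes (%) by distance from the promoter to the nearest peak outside its windows (bp, log scale) in replicates 1 and 2, for 267 closed (red) and 9005 open (blue) CpG-rich promoters with 80% or more unique words. Closed promoters lie below the open ones within 2000 bp in both libraries, and by 10000 bp lie above them in replicate 1 (56.2% against 48.2%) and next to them in replicate 2 (73.8% against 75.2%).

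A peak that overlapped between the libraries was found 112 times within 5000 bp of a closed promoter, at 83 genes and 102 distinct places. Of the 112, 76 lay before the start and 36 after it. Neither this split nor the places below were counted for open promoters. Windows left out around further coding starts all lie after the 5′-most one. The nearest flanking peak lay before the start in 56.5% of closed promoters in each library. For promoters open in both, the shares were 54.1% in replicate 1 and 51.3% in replicate 2. The 112 lay between genes in 40 cases and at the start of another gene in 27. Inside the same gene, 12 lay in an exon and 11 in an intron. Such an exon can belong to an overlapping gene, which was not checked. Inside another gene alone, 11 lay in an exon and 11 in an intron. The median value of the 112 was 1.36 in replicate 1 and 1.97 in replicate 2, beside 1.06 and 1.72 over all 44000 peaks found in both libraries.

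**Figure D5:**
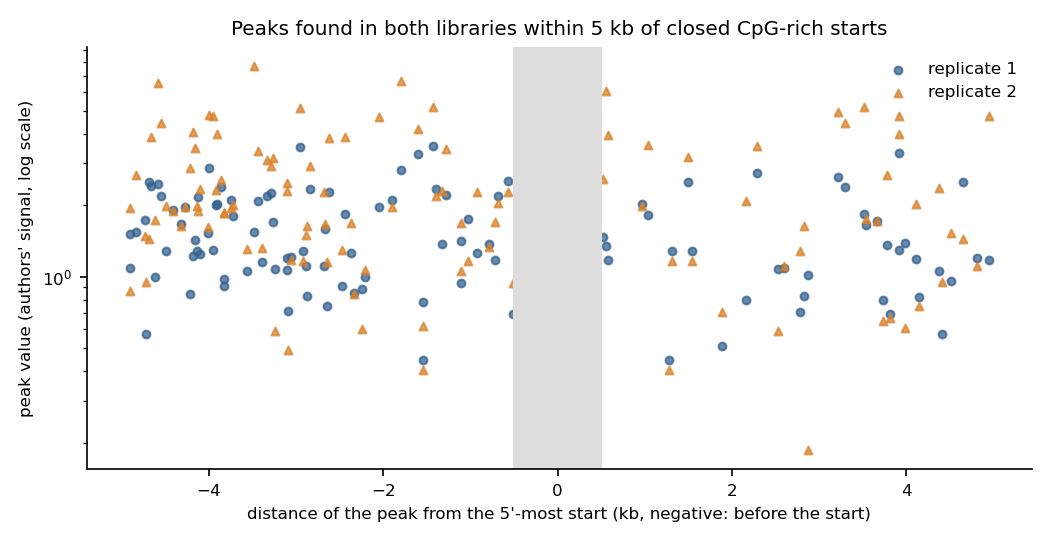
Value (authors' signal, log scale) of the 112 peaks found in both libraries within 5000 bp of a closed CpG-rich promoter, by distance from the 5′-most coding start (kb), with 1 point per library; the grey band marks the 500 bp on each side. More of the peaks lie before the start (76) than after it (36), a split that was not counted for open promoters.

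By rank, the strongest shared flanking peaks lay at Col13a1, Gbx1 and Pheta2. Col13a1, a membrane collagen, had one between genes at chr10:61980541-61980720, 1433 bp before its start, with 3.56 in replicate 1 and 5.20 in replicate 2. Gbx1, a homeobox gene of the spinal cord and forebrain, had one at chr5:24530161-24530340, 2959 bp before its start, with 3.52 and 5.14. In replicate 1 both peaks were above the median promoter peak of 2.50, and in replicate 2 both were just under that of 5.36. The peak of Pheta2 lay 1798 bp before its start (2.81 and 6.64). The peak of Hoxd3, 3914 bp after its 5′-most start (3.31 and 4.00), lay inside the gene and in an annotated exon. Hoxd4 and Hoxd3os1 also span this place, and which gene the exon belongs to was not checked. The peak of Nkx3-2 lay 4000 bp before its start (2.88 and 4.81). Wnt9a, printed above, had shared peaks 973 bp after its start in its own intron (2.03 and 1.98) and 3908 bp before it (2.01 and 4.00). The most shared peaks within 50000 bp were 17 around Gm12184, where 49.6% of the words were unique, 16 around Sfi1 and 15 around Arid3c, compared with a median of 4 for closed and 3 for open promoters with unique words.

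The authors' intervals with a false discovery rate (FDR) of the cut rate under 0.05 were also counted in the promoter windows. They come from the same cuts as the peaks. All 9205 open promoters (100%) held one in both libraries, while 293 of the 340 closed promoters (86.2%) held none in either, 19 held one in replicate 1, 29 in replicate 2 and 1 in both. Where present they were short, with a median of 12 bp in replicate 1 and 15 bp in replicate 2. Under 0.01, 1 closed promoter held an interval in replicate 1 and 4 did in replicate 2. Footprints, short protected gaps called by the authors, stood in 0 closed promoters in replicate 1 and 2 in replicate 2.

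Pou3f1, a POU homeobox gene of neural progenitors and glia, was the clearest borderline case. Its window held 689 bp of intervals under 0.05 in replicate 2, with a lowest FDR of 1.45e-22, and none in replicate 1. A peak began 554 bp after its coding start in both libraries, with 1.35 in replicate 1 and 6.03 in replicate 2. Its RefSeq start lay 839 bp from the GENCODE start, and a peak covered the window of the RefSeq start in both libraries, so the closed state of this gene depends on the annotation used. Nefh, the heavy neurofilament, was alike in replicate 2, with 225 bp under 0.05 and a peak of 3.94 at 664 bp. Map3k6, the gene with intervals in both libraries, had 2 bp in replicate 1 and 175 bp in replicate 2, with a peak 523 bp after its start (1.47 and 2.57).

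Peaks at other annotated starts, and other genes starting nearby, were counted for the closed genes alone. No share over all CpG-rich genes stands beside these values. Of the 133 closed genes with a noncoding transcript start, 9 had a peak in both libraries there and 18 in at least 1. Of 317 genes matched to RefSeq, 49 had a RefSeq start more than 500 bp away, and 5 (Evx2, Hoxb8, Pheta2, Pou3f1 and Sfi1) had a peak in both libraries there. Another coding gene started within 500 bp in 20 cases.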

How the data were processed

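DNase-seq was made from 2 libraries of cerebellum. Per the description files deposited with the data, the authors called peaks and FDR intervals on the mm10 alignments of each library alone. The mice are hybrids, and whether reads of CAST origin were lost in alignment to mm10 was not tested. No source used here names the aligner, callers or versions. The peak value is the signal that the authors deposited, normalised for depth by an unstated factor. The FDR value is a q-value (p-value unit) per short interval, and the authors deposited those under 0.05. Footprints carry the same deposited p-value on each line, so their positions alone were used.

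Starts came from GENCODE M21 on mm10, a reference chosen here, and sequence from RefSeq GRCm38.p6. Peaks counted when they overlapped a window by 1 bp or more, and the strongest gave a promoter its value. Words of 31 bases were counted over chromosomes 1 to 19, X and Y. Python 3.11.15, pandas 2.3.3, numpy 2.4.6, matplotlib 3.10.9 and bedtools 2.31.1 were used, and scripts were tested on simulated data. Depth in reads is unknown, so no interval is given. With 1 group of n = 2, no test was run. The members and lists were chosen with earlier results of these data known. Most genes named came from a rule that took the 4 closed genes of highest CpG ratio in each list and the 10 of highest ratio in all, those with the most or strongest shared flanking peaks, those at the limits, the longest runs and the lowest FDR. Not every gene the rule took is named, and others were named after their values were seen. Alternatives varied the ratio, window, starts, peak list, library, flank distance, FDR limit and unique words.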

Additional observations from a re-analysis of the deposited data

How the results depend on the processing

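The count of 340 closed promoters was 121 at a CpG ratio of 0.75 or more and 615 with the stricter peak list, and it ranged from 388 to 673 when a library was left out, 673 being replicate 1 alone. In the other settings it lay between 267 and 505. The share with a flanking peak in both libraries (24.7% within 5000 bp) was 7.94% within 2000 bp and 47.1% within 10000 bp, and 26.5% to 41.5% when a library was left out. The share with an FDR interval (0.294% in both libraries) was 5.59% to 8.53% in a single library. The share of CpG-rich transcription factor genes that were closed (29.6%) was 47.7% with the stricter list and 35.7% to 45.1% when a library was left out. Over all CpG-rich genes the share was 6.20% with the stricter list and 3.91% to 6.78% when a library was left out. Of 25 lists, 19 stayed on the same side of the share over all CpG-rich genes in every setting tried. The other 6 were ion channels, adhesion and orphan receptors, neuropeptides, keratins, clustered protocadherins and cerebellar lineage genes. One alternative, noncoding starts (322 closed), was chosen after seeing the data. No paired analysis was possible because the libraries form 1 group. Fewer peaks in replicate 1 limit what its closed calls can show, and the depth in reads is unknown.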
